A study of Bos taurus with 6 samples.

Results

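The miRNAs described here are 8 mature bovine miRNAs that are taken as markers of theca, smooth muscle and endothelium. Whether granulosa cells make them as well was not tested, so that their presence does not tell the cell of origin. They are bta-miR-143, bta-miR-145, bta-miR-199a-3p, bta-miR-199a-5p, bta-miR-199b and bta-miR-214 for theca, fibroblasts and smooth muscle, and bta-miR-126-3p and bta-miR-126-5p for endothelium. They were chosen by name, and all 8 were among the 512 miRNAs listed in every library. The libraries held small RNA of extracellular vesicles (EVs) released into the medium by cultured granulosa cells of Bos taurus, aspirated from follicles of 3 to 6 mm of slaughterhouse ovaries. After a first culture at 37 °C, cells were kept at 37 °C (control-EVs) or moved to 42 °C (heat stress, HS-EVs) for a further 24 h, with 3 libraries in each group, numbered 1 to 3. Both groups were primary cells grown with fetal bovine serum that had been depleted of exosomes. The study calls the libraries of a group biological triplicates. The sources used here do not say how many cows stand behind a library, so that the spread between libraries may be partly technical.

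The miR-143 and miR-145 hairpins are neighbours and are usually made from a common transcript that is abundant in smooth muscle and other mesenchymal cells, where both miRNAs favour the contractile state. The miR-199a and miR-214 hairpins likewise lie together on a non-coding transcript antisense to a dynamin gene and are typical of fibroblasts. The miR-126 hairpin lies within EGFL7, a gene of endothelial cells, and its miR-126-3p arm sustains signalling by vascular growth factors. In the ovary, the theca layer holds the blood vessels and the smooth muscle-like cells, while the granulosa layer has no vessels. A hairpin gives a 5p and a 3p arm, and the arm that is loaded into the silencing complex is the one that accumulates.

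In RefSeq (assembly ARS-UCD2.0) the genes of these miRNAs have the same arrangement. This assembly differs from the build used for mapping (UMD3.1), so only names and neighbours were taken from it. MIR143 and MIR145 lie within the non-coding RNA gene LOC132345768. MIR214 and MIR199A-1 lie within a further non-coding RNA gene, LOC132342463, inside DNM3. MIR199A-2 lies in DNM2, MIR199B in DNM1 and MIR126 in EGFL7. The values do not tell the products of MIR199A-1 and MIR199A-2 apart, and levels of bta-miR-199a-5p, bta-miR-199b and a further relative, bta-miR-199c (gene in NUP88), are uncertain in so far as counting may have divided shared reads among them.

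The values are normalized read counts as deposited, that is, reads per miRNA after collapsing by molecular tags and TMM scaling (trimmed mean of M-values) between libraries. Within a library all values are multiples of what 1 read is worth, so that the reads behind each value could be recovered. The libraries held 274434 to 2360980 reads, of which bta-miR-1246 took between 59.9% and 98.6%. For all other miRNAs, 34141 to 235634 reads were left, with the fewest in HS-EVs replicate 1. The floor, set at 3 reads, was 2.09 to 5.93 normalized counts in 5 libraries and 12.3 in HS-EVs replicate 1. Intervals and floors cover counting error only.

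The 8 miRNAs together took between 0.979% and 1.57% of the EV reads once bta-miR-1246 was set aside. Of the reads on other miRNAs, they held 1.39% (95% Wilson confidence interval 1.31% to 1.48%), 1.10% (1.05% to 1.14%) and 1.20% (1.12% to 1.28%) in control-EVs replicates 1 to 3. In HS-EVs replicates 1 to 3 they held 1.57% (1.44% to 1.70%), 0.979% (0.925% to 1.04%) and 1.17% (1.10% to 1.24%). The groups overlapped, with means of 1.23% ± 0.152 for control-EVs against 1.24% ± 0.30 for HS-EVs (SD, n = 3 each). As a share of all reads on miRNAs, the means were 0.325% ± 0.113 and 0.147% ± 0.112 (SD, n = 3 each). In HS-EVs replicate 1 this share was 0.0227%, beside 0.238% and 0.181% in HS-EVs replicates 2 and 3. In every library at least 91.7% of the reads on the 8 fell on bta-miR-199a-3p, bta-miR-143 and bta-miR-126-3p. Fewer cells or vesicles of a given origin and less of a miRNA in each cannot be told apart in such bulk libraries.

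The 8 spanned a wide range of levels, with 3 of them well above the others in mean. bta-miR-199a-3p, the usual guide arm of its hairpin, ranked 30 of 512 by mean normalized count over the 6 libraries, with 670, 1213 and 1051 normalized counts in the control libraries 1 to 3 and 805, 724 and 658 in the heat stress libraries 1 to 3. bta-miR-143 ranked 46, with 479, 405 and 375 in control-EVs and 489, 354 and 476 in HS-EVs. bta-miR-126-3p, the endothelial guide arm, ranked 54, with 648, 114 and 215 in control-EVs and 777, 186 and 412 in HS-EVs. All 3 were above the detection level of 10 normalized counts in each library, and the groups overlapped in each of them.

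bta-miR-126-5p, the other arm of the endothelial hairpin, came next at rank 122. Its normalized counts were 116, 15.3 and 57.3 in control-EVs and 82.2, 26.4 and 61.9 in HS-EVs, from 20 to 63 reads. As for its partner arm, the highest value of each group was in replicate 1 and the lowest in replicate 2.

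The other 4 lay near the floor. bta-miR-214, which shares a transcript with miR-199a, ranked 164, with 9.18, 25.8 and 19.8 normalized counts in control-EVs and 12.3, 24.2 and 21.2 in HS-EVs, from 3 to 37 reads. bta-miR-199a-5p, the minor arm, ranked 187, with 16.5, 11.9 and 5.93 in control-EVs and 20.5, 4.40 and 13.0 in HS-EVs, from 3 to 17 reads. bta-miR-145, the partner of miR-143 in smooth muscle, ranked 203, with 14.7, 13.9 and 5.93 in control-EVs and 8.22, 5.5 and 3.26 in HS-EVs. These last values of bta-miR-145 stand for 8, 20 and 3 reads in control-EVs and for only 2, 5 and 2 reads in HS-EVs. bta-miR-199b, a near relative of miR-199a-5p, ranked 236, with 7.34, 2.09 and 9.88 in control-EVs and 4.11, 4.40 and 3.26 in HS-EVs, from 1 to 5 reads in any library. Small differences were not detectable at this depth, and bta-miR-199b never reached the detection level of 10. The relative outside the set, bta-miR-199c, had 5 to 41 reads and a mean of 19.0 normalized counts, above the means of bta-miR-199a-5p (12.0) and bta-miR-199b (5.18).

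**Figure D1:**
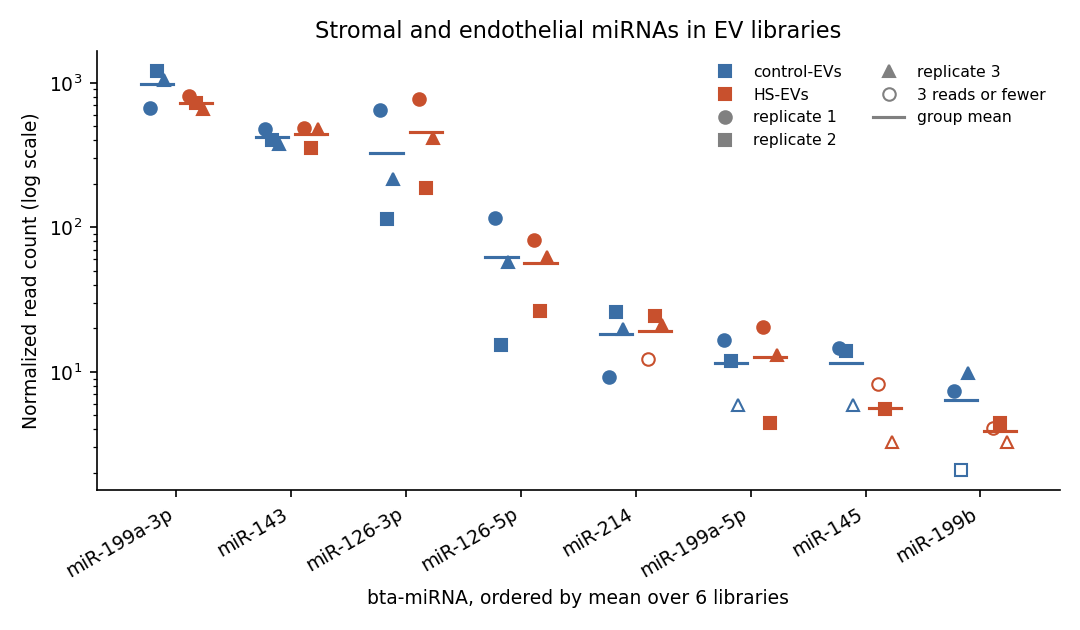
Normalized read counts (log scale) of the 8 miRNAs in each of the 6 EV libraries, ordered by mean level, with control-EVs in blue and HS-EVs in red; symbols give the replicate number, open symbols stand for 3 reads or fewer, and bars are group means. bta-miR-143 sat between 354 and 489 in all libraries, while bta-miR-126-3p ran from 114 to 777 and the groups overlapped in all 8.

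Between neighbours in this order, 2 steps held in each of the 6 libraries. bta-miR-199a-3p was above bta-miR-143 by 0.96 ± 0.49 (SD, n = 6 libraries) on the log2 scale, and bta-miR-126-3p was above bta-miR-126-5p by 2.65 ± 0.44 (SD, n = 6). Each had an exact sign-flip p of 0.0312, the smallest that 6 libraries allow, and an adjusted p of 0.109 over the 7 steps. The order was set by the means over the same 6 libraries, so that these p-values are no independent test of it. The other steps were held by 3 to 5 of 6 libraries with exact sign-flip p-values of 0.0938 to 0.438, and these neighbours did not differ beyond their spread. Capture efficiency differs between miRNAs, and its part in these steps was not tested.

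The abundant members differed most in how steady they were. Over the 6 libraries, the SD of bta-miR-143 was 13.7% of its mean, and only 5.10% of the 196 miRNAs with a mean of 10 or more normalized counts had a smaller relative SD. The SD of bta-miR-199a-3p was 26.7% of its mean, against a median of 35.2% over the 196 miRNAs. In contrast, the relative SD was 68.9% for bta-miR-126-3p and 61.3% for bta-miR-126-5p, above 91.3% and 86.7% of the 196 miRNAs, respectively. The highest library exceeded the lowest 6.83 times for bta-miR-126-3p, 1.84 times for bta-miR-199a-3p and 1.38 times for bta-miR-143. bta-miR-126-3p had at least 109 reads in every library.

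**Figure D2:**
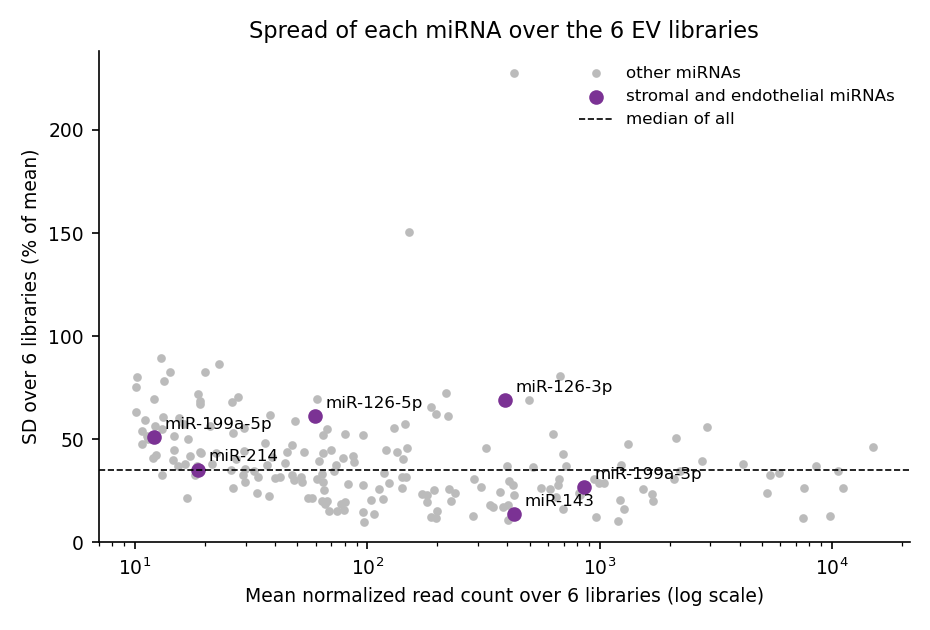
SD over the 6 EV libraries as a percentage of the mean, plotted against the mean normalized read count (log scale), for miRNAs with a mean of 10 or more; purple points are the 6 members that reach it, grey points the other miRNAs (bta-miR-1246 lies off the scale and is not drawn), and the dashed line marks the median of 35.2%. The endothelial arms bta-miR-126-3p and bta-miR-126-5p lie high at 68.9% and 61.3%, and bta-miR-143 lies low at 13.7%.

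To ask whether heat stress changed these miRNAs in EVs, all 512 miRNAs were entered a limma fit of log2(normalized count + 1). A call required a log2 fold change of at least 1 in size and a Benjamini-Hochberg adjusted p no higher than 0.3. None of the 8 was called, and 0 of the 512 miRNAs (0%) were. At an unadjusted p-value of 0.05 or less, limma found 0 of the 8 and 25 of the 512 miRNAs (4.88%), while on the recovered reads edgeR's quasi-likelihood test found 0 of the 8 and 26 of 512 (5.08%), and DESeq2 0 of the 8 and 10 of 510 (1.96%). The groups overlapped in all 8, while they did not overlap in 33 of the 512 miRNAs (6.45%). By log2 fold change, 5 of the 8 were above 0 and 3 below, with a median of 0.04 beside 0.01 over all 512 miRNAs. Without HS-EVs replicate 1, the library with the fewest reads on other miRNAs than bta-miR-1246, limma called 0 of the 8 and 2 of the 512, and 2 of the 8 lay above 0 and 6 below, with a median of -0.31 beside 0.02. Without control-EVs replicate 2, which had the lowest share of bta-miR-1246, limma called 0 of the 8 and 4 of the 512, with 4 of the 8 above 0 and 4 below.

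With libraries left out, limma found 1 of the 8 at an unadjusted p-value of 0.05 or less in 4 cases. These were bta-miR-199a-3p without control-EVs replicate 1 (-0.63, beside 8.4% of all miRNAs), bta-miR-199b without control-EVs replicate 2 (-0.96, beside 4.3%), bta-miR-145 without control-EVs replicate 3 (-1.27, beside 4.49%) and again bta-miR-199a-3p without both libraries of number 1 (-0.71, beside 11.3%). Their adjusted p-values from limma ran from 0.351 to 0.830. Without HS-EVs replicate 1, 2 or 3, limma found 0 of the 8, beside 6.84%, 5.86% and 3.91% of all miRNAs.

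Among the stromal miRNAs, bta-miR-145 had the log2 fold change farthest from 0, at -0.89 ± 0.52 (standard error; limma adjusted p = 0.873), with a 95% interval of -2.06 to 0.28. Its mean was 11.5 ± 4.86 normalized counts in control-EVs against 5.66 ± 2.48 in HS-EVs (SD, n = 3 each), and it was lower in HS-EVs in each of the 3 same-numbered comparisons. Its genomic neighbour bta-miR-143 averaged 420 ± 53.4 and 440 ± 74.3 (SD, n = 3 each), and its log2 fold change was 0.06 ± 0.43 (standard error; limma adjusted p = 0.974). The 95% interval for bta-miR-143 was -0.90 to 1.02.

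bta-miR-199a-3p averaged 978 ± 279 in control-EVs against 729 ± 73.6 in HS-EVs (SD, n = 3 each). Its log2 fold change was -0.38 ± 0.45 (standard error; limma adjusted p = 0.873). The overlap came from control-EVs replicate 1, whose 670 normalized counts lay among the HS-EVs values. Without that library the log2 fold change was -0.63 (limma adjusted p = 0.517), while it was -0.21 without control-EVs replicate 2 and -0.31 without control-EVs replicate 3. The other members of this family, bta-miR-199a-5p, bta-miR-199b and bta-miR-214, had log2 fold changes of 0.02, -0.42 and 0.13 with adjusted p-values of 0.988, 0.873 and 0.955 from limma. Their intervals reached from -1.35 to 1.39, from -1.64 to 0.80 and from -1.04 to 1.30, respectively, on 1 to 37 reads per library.

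For the endothelial arms, bta-miR-126-3p averaged 326 ± 284 in control-EVs against 458 ± 298 in HS-EVs (SD, n = 3 each). Its log2 fold change was 0.63 ± 0.73 (standard error; limma adjusted p = 0.873). It was higher in HS-EVs in each of the 3 same-numbered comparisons, which are not known to be pairs. The spread within each group was wider than the difference between the groups. The value rested on single libraries, with 0.064 without control-EVs replicate 2, 0.14 without HS-EVs replicate 1, 1.17 without HS-EVs replicate 2 and 1.31 without control-EVs replicate 1. bta-miR-126-5p averaged 62.8 ± 50.4 and 56.8 ± 28.2 (SD, n = 3 each), with a log2 fold change of 0.12 ± 0.74 (standard error; limma adjusted p = 0.972). Its direction turned without control-EVs replicate 2 (-0.66), HS-EVs replicate 1 (-0.21) or HS-EVs replicate 3 (-0.01), and with edgeR (-0.17) and DESeq2 (-0.18). The intervals were wide, -1.0 to 2.26 for bta-miR-126-3p and -1.53 to 1.77 for bta-miR-126-5p.

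Scaling by all reads on miRNAs in place of TMM multiplies all values of a library by 1 factor. The signs under it therefore say nothing of these 8 in particular. The relative factor was 0.103 in HS-EVs replicate 1, and 1.79 and 1.10 in HS-EVs replicates 2 and 3. It was 1.09, 2.44 and 1.84 in control-EVs replicates 1 to 3, so that HS-EVs replicate 1 was lowered by far the most. Under this scaling the median over all 512 went from 0.01 to -0.79 (log2), with 20.9% of them above 0. All 8 members fell below 0, from -0.89 for bta-miR-126-3p to -2.09 for bta-miR-145. With bta-miR-1246 left out of the total used for scaling, the signs were those of the deposited scaling, with log2 fold changes between -0.80 and 0.74.

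**Figure D3:**
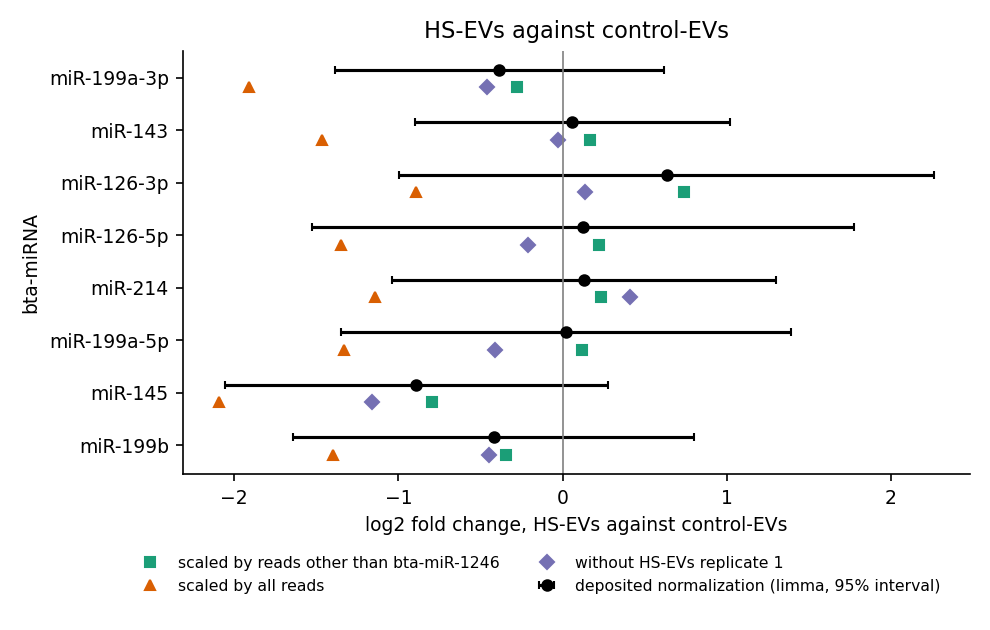
log2 fold change of HS-EVs against control-EVs for the 8 miRNAs; black points are limma's estimates on the deposited values with 95% intervals, coloured points the estimates under 2 other scalings and without HS-EVs replicate 1. All 8 intervals include 0, and scaling by all reads on miRNAs shifts every estimate below 0.

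Ratios of reads between members within a library do not depend on the scaling, and 5 of them were compared, each within a hairpin, a cluster or a family. The tested log2 ratios were of normalized counts + 1, so that they lie nearer to 0 than the read ratios where a partner had few reads and still depend somewhat on the scaling there. For the arms of the miR-126 hairpin there were 5.60, 7.41 and 3.76 reads of bta-miR-126-3p per read of bta-miR-126-5p in control-EVs and 9.45, 7.04 and 6.66 in HS-EVs. The log2 ratio averaged 2.39 ± 0.47 against 2.90 ± 0.28 (SD, n = 3 each; exact permutation test, two-sided, p = 0.3). With 3 libraries against 3, an exact permutation p cannot go below 0.1. In each library the 3p arm was the more abundant one.

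bta-miR-143 outnumbered its neighbour bta-miR-145 by a wide margin. There were 32.6, 29.05 and 63.3 reads of bta-miR-143 per read of bta-miR-145 in control-EVs and 59.5, 64.4 and 146 in HS-EVs. Where bta-miR-145 had 3 reads or fewer, the exact 95% intervals were wide, 21.3 to 309.8 in control-EVs replicate 3, 16.1 to 497 in HS-EVs replicate 1 and 40.1 to 1211 in HS-EVs replicate 3. The log2 ratio averaged 5.15 ± 0.53 against 6.10 ± 0.61 (SD, n = 3 each; exact permutation test, two-sided, p = 0.2, adjusted p = 0.75 over the 5 ratios). It was higher in HS-EVs in 3 of 3 same-numbered comparisons, which are not known to be pairs. The groups overlapped narrowly.

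The arms of miR-199a were more unequal than those of miR-126. bta-miR-199a-3p had 40.6, 102 and 177 reads per read of bta-miR-199a-5p in control-EVs and 39.2, 164.5 and 50.5 in HS-EVs, where the value of 177 rests on 3 reads of the 5p arm (exact 95% interval 60.4 to 863). The difference in log2 ratio between the groups was -0.41 (exact permutation test, two-sided, p = 0.7). For bta-miR-199a-5p against bta-miR-214 and against bta-miR-199b the differences were -0.11 and 0.44 (exact permutation tests, two-sided, p = 0.9 and 0.6). None of the 5 ratios separated the groups.

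The 8 miRNAs did not rise and fall together across the 6 libraries. Of their 28 pairs, 12 had a positive Pearson correlation of log2 levels and the median was -0.04, beside a median of -0.0016 over the 19110 pairs of the 196 miRNAs with a mean of 10 or more. The libraries are shared by all pairs, and so is the scaling. A correlation of 0.9 or more was found in 2 of the 28 pairs and in 1.84% of the 19110. Correlations of -0.8 or less were found in 2 of the 28 and in 5.15% of the 19110.

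Of the pairs of common origin, the arms of miR-126 followed each other. The arms bta-miR-126-3p and bta-miR-126-5p had r = 0.92 (exact permutation test, two-sided, p = 0.00833, adjusted p = 0.117 over the 28 pairs) and rho = 0.94 (exact permutation p = 0.0167, adjusted p = 0.156). Without the 2 libraries farthest from the median of bta-miR-126-3p, r was 0.89. Taken as deviations from the means of group and replicate number (the replicate block), r was 0.64 and rho 0.49. For bta-miR-143 and bta-miR-145, r was 0.15 and rho 0.43 (exact permutation p = 0.756 and 0.419), but r was 0.86 with reads scaled by all reads on miRNAs (exact permutation adjusted p = 0.07). The arms bta-miR-199a-3p and bta-miR-199a-5p had r = -0.19 and rho = -0.26 (exact permutation p = 0.740 and 0.658), and bta-miR-199a-5p and bta-miR-214 had r = -0.65 and rho = -0.66 (exact permutation p = 0.147 and 0.175). Without the 2 libraries farthest from the median of the first partner, r was -0.42, 0.14 and -0.81 in these 3 pairs. With the replicate block, r was 0.88, 0.27 and 0.57 in these pairs, so that their direction depends on the handling. In each of them at least 1 partner had 3 reads or fewer in some library.

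A single pair of the 28 passed an adjusted p of 0.05, namely bta-miR-143 and bta-miR-199a-5p, with r = 0.95 (exact permutation p = 0.00139, adjusted p = 0.0389) and rho = 1 (exact permutation p = 0.00278, adjusted p = 0.0778). It fell to r = 0.75 without the 2 libraries farthest from the median of bta-miR-143, and to an adjusted p of 0.369 (exact permutation) with reads scaled by those other than bta-miR-1246. bta-miR-143 and bta-miR-126-3p did not pass, with r = 0.82 and rho = 0.83 (exact permutation p = 0.0708 and 0.0583, adjusted p = 0.397 and 0.272) and r = 0.98 without the 2 farthest libraries. On the other side, bta-miR-214 had a negative r with both endothelial arms, -0.86 for each, with rho = -0.89 against bta-miR-126-3p and rho = -0.94 against bta-miR-126-5p. Only 5 and 3 reads of bta-miR-214 were found in control-EVs replicate 1 and HS-EVs replicate 1, where both arms were highest. Exact permutation p-values of r were 0.025 and 0.0375, with adjusted values of 0.233 and 0.263, and r without the 2 farthest libraries was -0.70 and -0.95. Without HS-EVs replicate 1, r was 0.94 for the arms of miR-126, 0.93 for bta-miR-143 with bta-miR-199a-5p and -0.84 for bta-miR-214 with each arm of miR-126. When reads were scaled by all reads on miRNAs, r was positive in all 28 pairs, while rho was slightly negative in 4 pairs with an arm of miR-126 (-0.03 to -0.14).

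**Figure D4:**
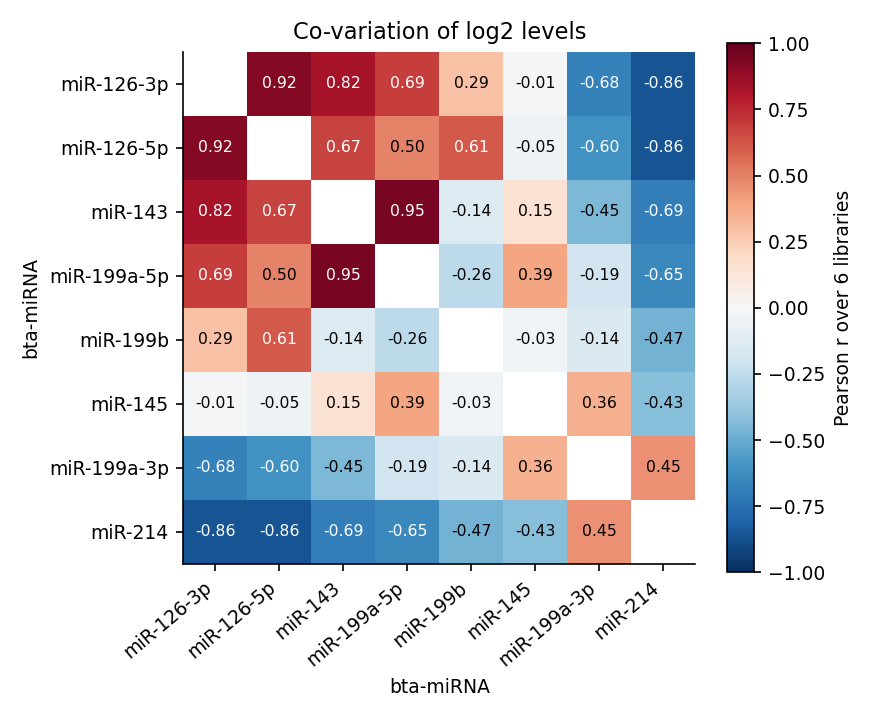
Pearson correlation over the 6 EV libraries between the log2 normalized read counts of each pair of the 8 miRNAs, from blue (-1) to red (1). The arms of miR-126 and bta-miR-143 have r of 0.92, 0.82 and 0.67 between them, none with an adjusted p of 0.05 or less, and bta-miR-214 is negative with both arms of miR-126 (-0.86 each).

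The level of bta-miR-126-3p moved with the read share of bta-miR-1246, the miRNA that dominated the libraries, a relation that was chosen after the values were seen. It was not computed for miRNAs outside the 8, so that it is not shown to be particular to bta-miR-126-3p. bta-miR-1246 took 84.6%, 59.9% and 73.2% of the reads in the control libraries 1 to 3, against 98.6%, 75.6% and 84.5% in the heat stress libraries 1 to 3. In both groups bta-miR-126-3p was lowest where this share was lowest and highest where it was highest. Over the 6 libraries, r was 0.94 (exact permutation p = 0.00694, adjusted p = 0.0312) and rho was 0.94 (exact permutation p = 0.0167, adjusted p = 0.075), adjusted over 9 relations, the 8 members and 1 ratio. These p-values come from the same libraries in which the relation was first seen, and are a description rather than a test of it. Without the 2 libraries farthest from the median share, r was 0.92. With reads scaled by those other than bta-miR-1246, r was 0.95 for bta-miR-126-3p (exact permutation adjusted p = 0.0278 over the 8 members). Under that scaling bta-miR-143 followed the share as well, with r = 0.89 and rho = 1 (exact permutation p = 0.00139 and 0.00278, adjusted p = 0.0111 and 0.0222) and r = 0.99 without the 2 farthest libraries. The groups have 3 libraries each, too few for a correlation within a group.

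On the deposited scaling, none of the other members had an adjusted p of 0.05 or less. bta-miR-126-5p had r = 0.81 and rho = 0.89 (exact permutation p = 0.0458 and 0.0333, adjusted p = 0.138 and 0.1), and r without the 2 farthest libraries was 0.65. For bta-miR-143, r was 0.69 and rho 0.77 (exact permutation p = 0.117 and 0.103), and r was 0.95 without the 2 farthest libraries. For bta-miR-199a-3p and bta-miR-214, r was -0.68 and -0.70, and rho -0.60 and -0.77 (exact permutation p of r = 0.139 and 0.121, of rho = 0.242 and 0.103). Without the 2 farthest libraries these r were -0.82 and -0.56. For bta-miR-145, bta-miR-199a-5p and bta-miR-199b, r lay between -0.23 and 0.54, with exact permutation p-values of 0.276 to 0.703, and between -0.45 and 0.93 without the 2 farthest libraries.

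The level of bta-miR-126-3p also varied widely against that of bta-miR-199a-3p. Per 100 reads on bta-miR-199a-3p there were 96.7, 9.37 and 20.5 reads on bta-miR-126-3p in control-EVs and 96.4, 25.7 and 62.6 in HS-EVs. The ratio is free of the scaling between libraries. Its log2 value followed the share of bta-miR-1246 with r = 0.94 and rho = 0.94 (exact permutation p = 0.00694 and 0.0167, adjusted p = 0.0312 and 0.075), and with r = 0.97 without the 2 libraries farthest from the median share. This ratio was not planned. It joins a member with a positive r to that share and 1 with a negative r, so that a high r follows largely from the choice. The p-values do not cover that choice and are a description. Both libraries with number 1 stood at the top and both with number 2 were lowest in their group. The part of bta-miR-1246, of library composition and of the replicate number in this range was not tested.

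**Figure D5:**
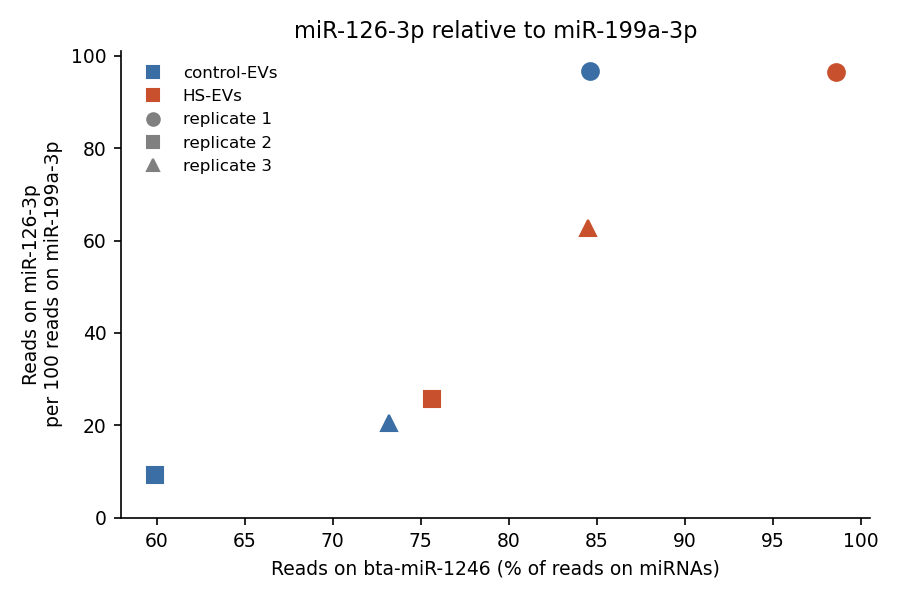
Reads on bta-miR-126-3p per 100 reads on bta-miR-199a-3p against the read share of bta-miR-1246 (% of all reads on miRNAs), 1 point per EV library, control-EVs in blue and HS-EVs in red, with symbols for the replicate number. The ratio was lowest (9.37) at the lowest share of 59.9% and stood at 96.7 and 96.4 in the libraries numbered 1, with shares of 84.6% and 98.6%, and the groups are interleaved.

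By the correlation of log2 levels over the 6 libraries with the mean of the 8 centred member levels, the miRNAs outside the set with the most similar pattern were bta-let-7a-5p (r = 0.86), bta-miR-486 (0.85), bta-miR-296-3p (0.82), bta-miR-2478 (0.80) and bta-miR-1343-5p (0.80), out of 190 candidates. These values are a description, since the highest of many were taken. bta-miR-486, a miRNA of red blood cells, had 299 to 1226 normalized counts.

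Markers of other cells were set beside these miRNAs. The 6 stromal members summed to 1197 to 1671 normalized counts in control-EVs and 1116 to 1339 in HS-EVs, and the 2 endothelial arms to 129 to 764 and 212 to 859. The 6 granulosa cell markers summed to 8346 to 16553 in control-EVs and 8509 to 15241 in HS-EVs, led by bta-miR-21-5p (mean 10626), which many cell types express, fibroblasts included. Without it, the other 5 summed to 1782 to 2114 and 1134 to 2211, led by bta-miR-202 (mean 1682), while bta-miR-212 and bta-miR-383 had 3 reads or fewer in every library. The liver marker bta-miR-122, abundant in plasma, had 12232 to 25400 in control-EVs and 7524 to 13633 in HS-EVs. Red and white blood cell markers (7 miRNAs) summed to 834 to 1623 and 590 to 1101, and striated muscle markers (4), led by bta-miR-1 and bta-miR-133a, to 522 to 971 and 227 to 1582. Epithelial markers (5), led by bta-miR-200a and bta-miR-200b, were near the floor, with sums of 11.9 to 14.7 in control-EVs and 8.15 to 17.6 in HS-EVs. Sequence alone does not separate bovine cells from the bovine serum in the medium, and the part of serum, blood or other cells in the levels of the 8 miRNAs was not tested.

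Further miRNAs that are abundant in fibroblasts, smooth muscle or endothelium were listed beside the 8. Of 15 such miRNAs, 0 were called by limma (0% of all 512 miRNAs), 8 had a higher mean in HS-EVs, and the groups did not overlap in 1, against 6.45% of all miRNAs. The list was led by bta-miR-221 (1759 to 4740 normalized counts) and bta-miR-29a (1030 to 1567). Its sum was 7341 to 8453 in control-EVs and 7268 to 11297 in HS-EVs.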

How the data were processed

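Small RNA of EVs from bovine granulosa cell cultures (6 libraries) was sequenced by the authors with a kit that tags each molecule. Per the labels and the study's methods, reads were trimmed with cutadapt (1.11), collapsed by tag, mapped with Bowtie2 (2.2.2) to UMD3.1 and to miRBase and normalized by TMM in edgeR. The deposited values are a normalized signal, not counts. Reads were recovered by dividing each value by the smallest value above 0 of its library (100% of values whole within 0.001), and the factors so recovered match those of TMM with control-EVs replicate 1 as reference.

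All 512 miRNAs were tested with limma (3.58.1, R 4.3.3, lmFit and eBayes) on log2(value + 1), with Benjamini-Hochberg adjustment, without a filter or a block. edgeR (4.0.16) and DESeq2 (1.42.0) on recovered reads were alternatives. The relation to bta-miR-1246 and the edgeR fit with the default reference library were chosen after seeing the data. Scripts were tested on simulated data. Exact permutation used the 10 ways to divide 6 libraries into 3 and 3 for ratios, and the 720 orders of 6 libraries for correlations (Python 3.11.15). By rule, the text names the 8 members, the 5 miRNAs most like their mean and up to 2 of each marker list. The relative bta-miR-199c, markers near 0 and the miRNAs most like single members were named after their values were seen. Members and lists were chosen with earlier results of these data known. The labels do not say that a replicate number marks a shared culture. No 2 libraries had like counts (chi-square per degree of freedom at least 18.8 in 15 pairs). Mature sequences were not used here.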

Additional observations from a re-analysis of the deposited data

How the results depend on the processing

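Each of the 8 members was recomputed under 18 alternatives (17 for bta-miR-199b, which the filter removed), and 0 of the 143 values passed the threshold, with a smallest adjusted p of 0.351 (limma, bta-miR-199a-3p without both libraries of number 1). Limma's trend, the replicate block and the filter leave 23 of these values equal by construction. Of the other 120, the direction was unchanged in 96, among them all of bta-miR-145 (-2.09 to -0.60), bta-miR-199a-3p (-1.91 to -0.21) and bta-miR-199b (-1.40 to -0.05). The scaling by all reads gave -1.46 for bta-miR-143, -1.33 for bta-miR-199a-5p, -1.14 for bta-miR-214, -0.89 for bta-miR-126-3p and -1.35 for bta-miR-126-5p. There the scaling itself changes all values of a library, most of all in HS-EVs replicate 1. For the other reversals the cause was not tested. bta-miR-199a-5p was -0.015 with DESeq2 size factors, -0.089 and -0.11 with edgeR's quasi-likelihood test (authors' and default reference library), -0.015 with DESeq2 and -0.12 without both libraries of number 1, and bta-miR-126-5p was -0.17, -0.18 and -0.18 with the 2 edgeR fits and DESeq2. With each library left out in turn, log2 fold changes lay between -0.025 and 0.21 for bta-miR-143 (below 0 without control-EVs replicate 3, HS-EVs replicate 1 or HS-EVs replicate 3), -0.41 and 0.58 for bta-miR-199a-5p (below 0 without the same libraries), -0.27 and 0.43 for bta-miR-214 (below 0 without control-EVs replicate 1 or HS-EVs replicate 2) 0.064 and 1.31 for bta-miR-126-3p, and -0.66 and 0.76 for bta-miR-126-5p (below 0 without control-EVs replicate 2, HS-EVs replicate 1 or HS-EVs replicate 3).

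Over all miRNAs, the calls numbered 1 with a pseudocount of 0.5, 3 with either edgeR fit, 2 with limma's trend, 31 without both libraries of number 1, and 0 to 4 with each library left out. None was a member. Same-numbered libraries' deviations correlated by 0.14, 0.14 and 0.08, and all 6 libraries correlated best with their own number. The median miRNA had a mean of only 3.83 normalized counts, where counting error lowers such correlations. They therefore do not settle whether the numbers mark pairs. The fit with the replicate block also gave 0 calls, with the fold changes fixed by the balanced design. Its standard error was 0.41 for bta-miR-126-3p, in place of 0.73, and 0.41 for bta-miR-145, in place of 0.52. With the block, bta-miR-145 had an unadjusted p of 0.0701 and an adjusted p of 0.835 (limma). Leaving out each library, the log2 ratio difference ran from -0.97 to 0.039 for bta-miR-199a-3p to bta-miR-199a-5p, from -0.82 to 0.64 for bta-miR-199a-5p to bta-miR-214 from -0.30 to 1.07 for bta-miR-199a-5p to bta-miR-199b, from 0.26 (without control-EVs replicate 3) to 0.72 for bta-miR-126-3p to bta-miR-126-5p and from 0.60 (without HS-EVs replicate 3) to 1.25 for bta-miR-143 to bta-miR-145.

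Positive r numbered 28 of 28 with reads scaled by all reads, and adjusted p-values of 0.05 or less were found for 4 pairs under that scaling and 0 under scaling by reads other than bta-miR-1246; with 5 libraries an adjusted p of 0.05 cannot be reached for a single pair, so that no count is given. Scaled by all reads, r was 0.83 for bta-miR-199a-3p and bta-miR-199a-5p, 0.74 for bta-miR-199a-5p and bta-miR-214, 0.66 for bta-miR-199a-3p and bta-miR-126-3p, and 0.57 for bta-miR-214 with each arm of miR-126. With the replicate block it was 0.27 and 0.57 for the first 2 of these pairs and 0.64 for the arms of miR-126, and bta-miR-143 had 0.42 with bta-miR-126-3p and -0.43 with bta-miR-126-5p. For bta-miR-143 and bta-miR-145, r was 0.86 with reads scaled by all reads, 0.88 with the replicate block and -0.013 with reads scaled by those other than bta-miR-1246. With each library left out, r ran from -0.11 to 0.61 for that pair and from -0.55 to 0.035 for the arms of miR-199a. The summed share of the members was 1.23% and 1.24% of reads other than bta-miR-1246 in control-EVs and HS-EVs. Depth limits bta-miR-145, bta-miR-199a-5p, bta-miR-199b and bta-miR-214, each at 3 reads or fewer in at least 1 library.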

Other observations

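The miRNAs most like each abundant member were listed after the values were seen, as a description over the same 6 libraries. Among 190 miRNAs outside the set, those most like bta-miR-199a-3p were bta-miR-16b (r = 0.99), bta-miR-27b (0.97), bta-miR-17-5p (0.97), bta-miR-148a (0.96) and the plasma-abundant bta-miR-122 (0.94). Those most like bta-miR-126-3p were bta-miR-2478 (0.96), bta-miR-1343-5p (0.96), bta-miR-11976 (0.95), bta-miR-11975 (0.92) and bta-miR-10174-3p (0.90). bta-miR-143 was most like bta-let-7a-5p (0.94), bta-miR-30c (0.92), bta-miR-1343-5p (0.90), bta-miR-296-3p (0.88) and bta-miR-2284x (0.83). bta-miR-2478 had 10.5 to 78.1 normalized counts and ranked the 6 libraries in the same order as bta-miR-126-3p (rho = 1).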
